A study of Mus musculus with 15 samples.

Results

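Hollow mesoporous silica nanoparticles (HMSNPs) were compared with mesoporous silica nanoparticles without a cavity (MSNPs) in RAW 264.7 cells, a macrophage line derived from a mouse tumour induced by Abelson leukemia virus. Both particles carry mesopores and have a nominal diameter of 100 nm, and both were given at 200 µg/mL for 6 h, so the comparison addresses what the particles' architecture changes when mass dose, size class and time are held equal. The 6 libraries named for these treatments were chosen by their labels, 3 HMSNP-treated and 3 MSNP-treated, out of 15 libraries in 5 groups, and were fitted alone. The remaining groups were nontreated controls and the nonporous SNP100 and SNP50, and the 3 controls serve below only as background levels, with no test. For each particle this dose was the highest the study took as nontoxic. HMSNPs were made by coating a solid silica core with a mesoporous shell and etching the core, whereas MSNPs were made around a surfactant template, so the particles differ in density, synthesis and, as the study states, surface composition as well as in the cavity, and equal mass is not an equal number of particles. All libraries come from 1 cell line, and nothing in the labels says that replicates were separate cultures, so p-values measure the spread between these samples, which may be technical. The libraries of each treatment also carry a name prefix of their own, so whatever that prefix marks and the treatment cannot be told apart.

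Macrophages engulf particles of this kind into vesicles that fuse with lysosomes, the acid compartments in which hydrolases digest the contents. Acidity is set by a proton pump, the V-ATPase, and genes of pump, hydrolases and membrane proteins are under the MiT/TFE transcription factors (TFEB, TFE3, MITF), which are held in the cytoplasm by mTORC1 on the lysosome surface and bind E-boxes of the CLEAR type. A second program that cells use under stress runs through ATF4, which is translated when eIF2α is phosphorylated and switches on amino acid transport, amino acid synthesis and the stress effectors Ddit3, Trib3 and Chac1. Macrophages also keep a low tonic output of interferon-stimulated genes, and of growth-factor and inflammatory immediate early genes.

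Library totals over genes ranged from 31652167 to 38331517 counts for MSNP and from 33391045 to 42617812 for HMSNP. Values are given as CPM, counts scaled by library size and a trimmed-mean (TMM) factor, and fold changes as log2 values of HMSNP over MSNP with edgeR's adjusted p. CPM does not account for transcript length, so levels are compared between libraries and not between genes. In Euclidean distance on log2(CPM + 0.5), libraries lay 22.7 to 25.3 apart within the MSNP-treated group, 23.5 to 27.1 within the HMSNP-treated group and 59.3 to 63.5 across the groups. The nontreated controls varied more: the chi-square per gene between replicate pairs was 73.1 to 226 there, against 4.95 to 9.72 for MSNP and 5.14 to 15.3 for HMSNP. Mitochondrial transcripts took 0.807% to 1.221% of the counts under MSNP and 0.9452% to 1.69% under HMSNP. All 14 macrophage markers had counts, with summed levels of 14000 to 14800 CPM under MSNP and 16500 to 17500 CPM under HMSNP. Markers of other cell types were at or near 0: the summed level was at most 0.0291 CPM for 6 epithelial markers, 0.0873 for 5 B cell markers, 0.39 for 5 T cell markers, 0.812 for 7 fibroblast markers, 1.86 for 5 neutrophil markers and 4.21 for 4 dendritic cell markers in these 6 libraries. Endothelial markers summed to 8.21 to 10.2 CPM under MSNP and 4.45 to 5.11 CPM under HMSNP, almost all of it Vwf at 9.94, 9.73 and 7.86 CPM and 4.47, 4.08 and 4.58 CPM, and the part of other cells in the results was not tested.

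The particles left widely different transcriptomes. Of 17460 genes tested, 7142 (40.9%) passed an adjusted p of 0.05, 3577 higher (20.5%) and 3565 lower (20.4%) in the HMSNP-treated group. Among the 11467 genes with a mean of at least 1 CPM the share was 55.3%, which is the background for lists of well expressed genes. Most changes were small, with a median absolute log2 fold change of 0.40 among called genes. At least a 2-fold change was met by 1394 genes (7.98%), 691 higher (3.96%) and 703 lower (4.03%). The even split holds relative to TMM scaling, and with scaling to total counts alone 4426 genes were higher and 2920 lower, 60.3% and 39.7% of the calls. HMSNP-treated and MSNP-treated libraries did not overlap for 50.2% of genes, above for 25.4% and below for 24.8%. In the plot of fold change against mean level, genes called in each direction appear at all levels. The highest point, Erdr1x at a log2 fold change of 8.96, rested on overlapping groups (0.00891 ± 0.0154 CPM under MSNP and 6.78 ± 11.8 CPM under HMSNP, SD, n = 3) and was picked out after its values were seen. Of 2022 long noncoding RNA genes tested, 338 were higher and 124 lower, both below the shares of all genes tested (20.5% and 20.4%).

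**Figure D1:**
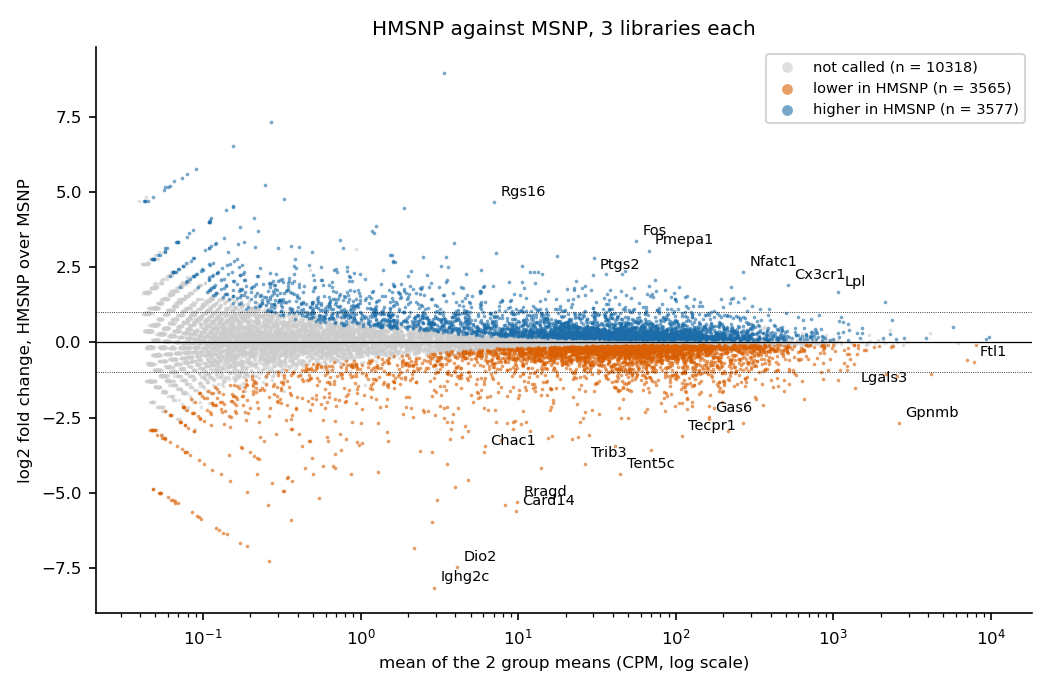
Log2 fold change of HMSNP over MSNP (y axis) against the mean of both group means in CPM (x axis, log scale) for 17460 genes, 1 point per gene, coloured by call, with dotted lines at 2-fold. Called genes lie on both sides, 3577 above and 3565 below, and Gpnmb, Lpl and Cx3cr1 stand out among the abundant genes.

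The genes most reduced in the HMSNP-treated group were ones that MSNP-treated cells expressed and HMSNP-treated cells almost lacked. Dio2, the deiodinase that activates thyroid hormone, was at 7.86, 8.66 and 7.95 CPM under MSNP and at 0.0292, 0.0785 and 0.0229 CPM under HMSNP. Ighg2c, an immunoglobulin heavy-chain constant gene, was at 6.04, 6.15 and 5.41 CPM against 0.0292, 0 and 0.0229 CPM. Sstr5, a somatostatin receptor, was at 4.9, 4.44 and 3.58 CPM against 0.0292, 0.0524 and 0.0229 CPM. All HMSNP-treated libraries held 3 or fewer counts of these genes, so the changes are bounds: at least 104-fold lower for Dio2, 74.9-fold for Ighg2c and 55-fold for Sstr5, against a floor of 3 counts per library. Controls were near the same low levels, at 0.0602, 0.0574 and 0 CPM for Dio2.

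Genes with more counts had the same form. Card14, a scaffold of NF-kB signaling, was at 19.3, 19.1 and 18.3 CPM under MSNP and 0.38, 0.366 and 0.412 CPM under HMSNP (log2 fold change -5.60 ± 0.10 (SE), adjusted p = 1.2e-11). The span of Card14 overlaps Sgsh on the opposite strand, whose log2 fold change was -0.12. Rragd (chr4:32982984-33025899), the RagD GTPase that links amino acids to mTORC1 and to MiT/TFE factors, was at 21.6, 19.8 and 16.1 CPM against 0.497, 0.497 and 0.458 CPM (-5.30 ± 0.16 (SE), adjusted p = 3.1e-10), and the controls were at 0.301, 0.258 and 0.421 CPM. No library of one treatment reached the levels of the other for either gene. Fabp4, a fatty acid carrier of lipid-laden macrophages, had a log2 fold change of -4.57. The 12 largest decreases also held Tspan10, a tetraspanin (-5.41), Dok7, an adaptor of the muscle-specific kinase MuSK (-5.96), Ptpn14, a tyrosine phosphatase (-5.24), Tns1, a focal adhesion protein (-4.30), Efcab6 (-4.79) and Tent5c.

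Among abundant genes, the smallest p-values of the decreases fell to Rilpl2, Gpnmb, Tent5c, Gas6, Anpep and Slc6a8. Gpnmb (chr6:49013426-49047863 on GRCm39), a glycoprotein of stressed lysosomes and of phagocytes, was at 4599, 4534 and 4329 CPM in the MSNP-treated libraries. The HMSNP-treated libraries held 721, 707 and 677 CPM and the controls 623, 662 and 533 CPM (-2.68 ± 0.034 (SE), adjusted p = 2.4e-12). Only the MSNP-treated libraries were high. Rilpl2, an adaptor for Rab GTPases, was at 387, 385 and 366 CPM against 48.9, 49.3 and 48.4 CPM (-2.96 ± 0.035 (SE), adjusted p = 2.4e-12). Gas6, the bridging ligand of the TAM receptors that recognize dying cells, was at 277, 282 and 269.7 CPM against 46.8, 48.7 and 47.4 CPM, with controls at 46.9, 49 and 43.6 CPM (-2.54 ± 0.035 (SE)). Tent5c, a cytoplasmic poly(A) polymerase, showed the largest fold of these genes (-4.38 ± 0.06 (SE), 86.7, 87.9 and 80.3 CPM against 4.24, 4.19 and 3.87 CPM). Anpep, aminopeptidase N, and Slc6a8, the creatine transporter, had log2 fold changes of -2.66 and -1.89.

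Increases in the HMSNP-treated group had another profile: several were signaling genes that controls express and MSNP-treated cells had at a fraction of that level. Rgs16 (chr1:153616091-153621228), which ends G protein signals, was at 0.552, 0.615 and 0.437 CPM under MSNP, 13, 13.8 and 13.8 CPM under HMSNP and 15.8, 16.5 and 16.7 CPM in controls (4.65 ± 0.12 (SE), adjusted p = 9.8e-11). Fos (chr12:85520658-85524047), a subunit of AP-1, was at 9.55, 9.7 and 10.4 CPM under MSNP, 96.6, 105 and 105 CPM under HMSNP and 106, 93.8 and 104 CPM in controls (3.37 ± 0.054 (SE), adjusted p = 8.2e-12). For both genes the HMSNP-treated libraries sat at or close to the controls and the MSNP-treated ones apart from them. Trib1, a pseudokinase that directs C/EBP factors to degradation, followed with 4.19, 3.85 and 4.66 CPM against 28.7, 33.4 and 30.6 CPM (2.87 ± 0.083 (SE)) and controls at 33.5, 29.3 and 27.9 CPM. Nfatc1, a master factor of osteoclasts, was at 85.5, 91 and 88.8 CPM against 434, 469.8 and 441 CPM (2.34 ± 0.04 (SE)), with controls at 532, 581 and 319 CPM. Cx3cr1, the fractalkine receptor, was at 222, 211 and 215 CPM against 778, 848 and 798 CPM (1.90 ± 0.038 (SE)). Control levels of Cx3cr1, 818, 911 and 641 CPM, spanned those of the HMSNP-treated group.

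Pmepa1 and Bmf rose under HMSNP compared with MSNP but stayed below the controls. Pmepa1, a feedback inhibitor of TGF-beta signaling, was at 13.2, 15.1 and 15.2 CPM under MSNP, 115, 128 and 117 CPM under HMSNP and 215, 219 and 252 CPM in controls (3.05 ± 0.062 (SE), adjusted p = 2.4e-11). Bmf, a BH3-only promoter of apoptosis, was at 1.4, 1.76 and 1.72 CPM under MSNP, 11.3, 13.6 and 13.9 CPM under HMSNP and 29.1, 31.2 and 25.1 CPM in controls (2.98 ± 0.12 (SE)). The 3 groups did not overlap for either gene. Lpl (chr8:69284603-69360100), lipoprotein lipase, had the opposite place: 505, 509 and 522 CPM under MSNP, 899, 871 and 811 CPM in controls and 1630, 1619 and 1635 CPM under HMSNP (1.67 ± 0.026 (SE), adjusted p = 8.2e-12). Its controls lay between the treatments, below one and above the other. Fnbp1l, a membrane-bending adaptor, had a log2 fold change of 1.85, and Zfp618, Ermap, Ocstamp, Dmwd, Kcna3, Nt5e and Map1a, all of low level under MSNP, had values from 2.84 (Map1a) to 3.88 (Zfp618).

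**Figure D2:**
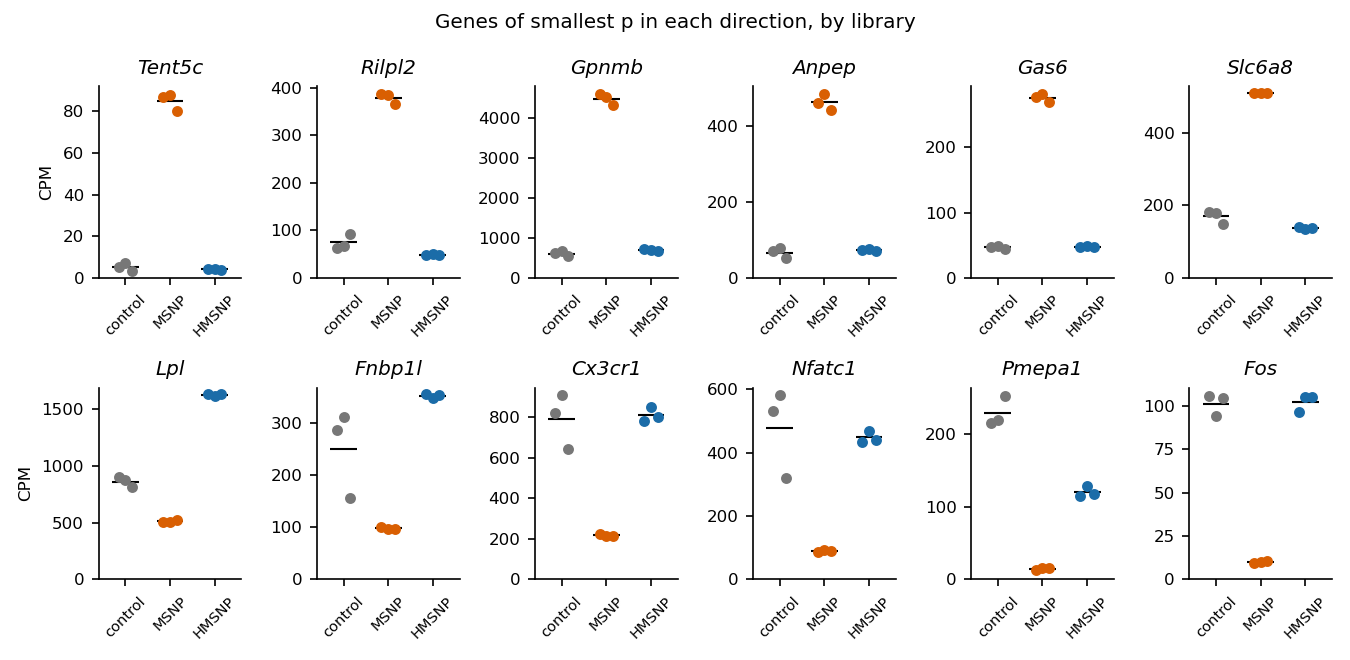
CPM per library (y axes from 0, 1 panel per gene) for the 6 decreases and 6 increases of smallest p, with 3 points per group for controls, MSNP and HMSNP and a bar at the mean. In the upper row only the MSNP-treated libraries are high, as for Gpnmb, and in the lower row they are low, as for Fos.

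Across the genes changed at least 2-fold with a mean of at least 1 CPM, the controls were closer to the HMSNP-treated group for most. On the log2 scale of group means, 640 of 718 such genes (89.1%) had the control mean nearer HMSNP than MSNP, 270 of 304 increases and 370 of 414 decreases. The control mean lay between the treatments for 348, past HMSNP for 363 and past MSNP for 7. Over all 7142 called genes, small changes included, the share nearer HMSNP was 66.9%. Without Control replicate 3, the control library farthest from the others, the shares were 90.7% and 77.5%, a check chosen after the data were seen. These shares describe 3 variable controls and carry no test.

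**Figure D3:**
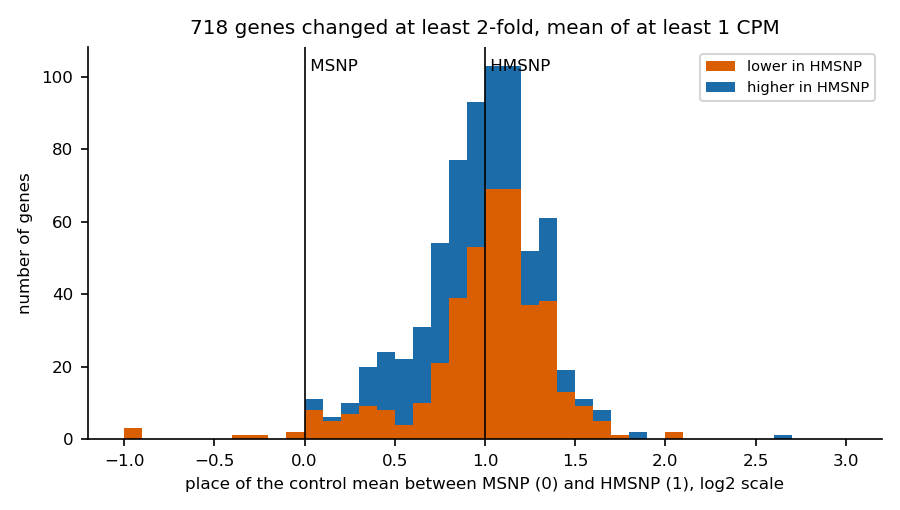
Number of genes (y axis) by the place of the control mean on the line from the MSNP mean (0) to the HMSNP mean (1) on the log2 scale (x axis), for 718 genes changed at least 2-fold, with values past either end of the axis drawn in the end bins. Most genes, increases and decreases alike, lie around 1, where controls and HMSNP share a level.

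**Figure D4:**
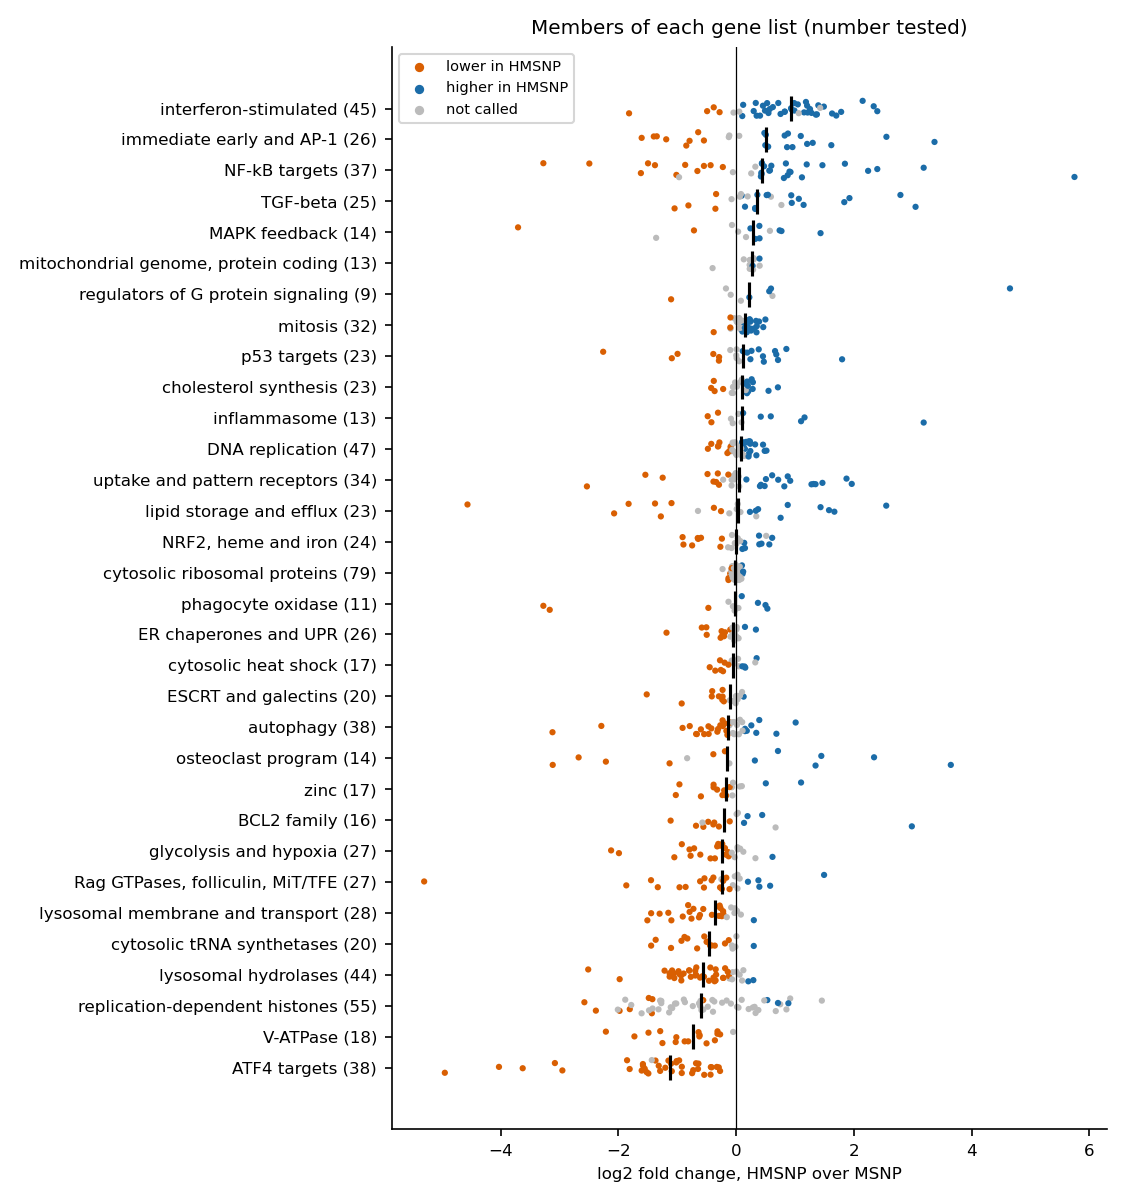
Log2 fold change of HMSNP over MSNP (x axis) of each tested member of the gene lists (rows, number tested in brackets), coloured by call, with a bar at the list's median. The ATF4 targets, the V-ATPase and the lysosomal hydrolases lie mostly left of 0, with medians of -1.13, -0.73 and -0.56, and the interferon-stimulated genes mostly right of 0 with a median of 0.93.

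Lysosomal genes were lower in the HMSNP-treated group almost throughout. Of 18 V-ATPase genes, 17 fell and 0 rose, 7 of them at least 2-fold. Over all genes tested 20.4% fell, and over protein-coding genes 3324 of 12465. The share called was 94.4%, against 55.3% of genes with a mean of at least 1 CPM. The median log2 fold change was -0.73 against 0.02 over all genes. Atp6v0d2, the d subunit isoform of osteoclasts and activated macrophages, was at 203, 190.4 and 188 CPM under MSNP and 42.3, 40.2 and 42.8 CPM under HMSNP (-2.21 ± 0.042 (SE), adjusted p = 1.7e-11). Atp6v1c1, the C subunit that couples the peripheral to the membrane sector, was at 639, 608 and 584 CPM against 219, 222 and 211 CPM (-1.49 ± 0.038 (SE)). Atp6v1d, of the rotor stalk, and Atp6v0d1, the ubiquitous d isoform, had log2 fold changes of -1.73 and -1.29. The exception was Atp6v0a2, an a subunit of Golgi and endosomes, at 120.5, 122 and 112 CPM against 116, 112 and 114 CPM (-0.05 ± 0.04 (SE), adjusted p = 0.35). Measured against the mean of the controls, the median over the pump genes was 0.64 under MSNP and -0.05 under HMSNP on the log2 scale.

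Of 44 lysosomal hydrolases, 35 fell and 2 rose, with a median of -0.56. Hyal1, a hyaluronidase, had the largest change (80.2, 81.5 and 92.7 CPM against 15.7, 13.6 and 15.3 CPM, -2.51 ± 0.07 (SE)), and its span overlaps Hyal3 and Naa80 on the same strand, which were lower too (-1.12 and -1.88). Gla, the alpha-galactosidase deficient in Fabry disease, was at 212, 203 and 194 CPM against 53.6, 49.9 and 50.8 CPM, with controls at 47.9, 51.9 and 58.5 CPM (-1.98 ± 0.044 (SE), adjusted p = 4.4e-11). The span of Gla overlaps Hnrnph2 on the opposite strand (-0.57). Naglu, which degrades heparan sulfate, was at 140.5, 144 and 138 CPM against 61.4, 62.1 and 58.4 CPM. Ctsk, the collagen-degrading cathepsin K, fell from 19, 17.1 and 18.5 CPM to 8.15, 8.14 and 8.57 CPM (-1.13 ± 0.064 (SE)). Among members named after their values were seen, to give the breadth of the list, Ctsd (2925 to 1407 CPM in mean, -1.06), Ctsb (-1.05) and Psap (-1.13) fell, which are cathepsins D and B and the saposin precursor. Gm2a (0.21) and Ids (0.29) were the members that rose, and Fuca1 (0.06) and Acp5 (-0.12) were among the 7 that passed in neither direction.

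Of 28 genes for lysosomal membrane proteins and transporters, 21 fell and 1 rose, with a median of -0.35. Ctns, the cystine exporter, was at 61.3, 62.1 and 63.2 CPM against 22.3, 19.9 and 23.3 CPM (-1.51 ± 0.054 (SE)). Clcn7, the chloride-proton exchanger, was at 180.4, 188 and 188 CPM against 67.1, 64.2 and 72.9 CPM (-1.45 ± 0.046 (SE)). Mcoln1, the calcium channel TRPML1, was at 85.9, 87.5 and 90.1 CPM against 39.8, 35.3 and 43.4 CPM (-1.15 ± 0.062 (SE)). In 20 of the 28, these included, all HMSNP-treated libraries were below all MSNP-treated ones, as in 24.8% of all genes tested. Mfsd12, a cysteine importer, had a log2 fold change of -1.30. Tpcn1, a two-pore channel, was the gene that rose (0.30).

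The regulators upstream did not move together. Of 27 genes for Rag GTPases, folliculin partners, mTORC1 parts and MiT/TFE factors, 16 fell and 5 rose. Beside Rragd, Rragc fell (413, 396 and 392 CPM against 146, 152 and 143 CPM, -1.45 ± 0.035 (SE)), as did Fnip2, a partner of folliculin (1030, 1078 and 952 CPM against 287, 282 and 271 CPM, -1.87 ± 0.045 (SE)). Mitf, in contrast, rose from 39.2, 36.3 and 37.5 CPM to 107, 109 and 102 CPM (1.49 ± 0.044 (SE), adjusted p = 3e-10), with controls at 114, 119.7 and 70.7 CPM. The related factors Tfeb (0.58) and Tfe3 (0.38), named after their values were seen, also rose, so the mRNAs of these factors and those of the lysosomal genes went in opposite directions.

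Promoters were searched for fixed motifs from 250 bases before to 50 after the start of the canonical GENCODE transcript on GRCm39, on both strands, for 12465 protein-coding genes. The CLEAR motif TCACGTGA was in 206 promoters (1.65%), in 5 of 44 hydrolase promoters (11.4%) and in 5 of 28 of the membrane list (17.9%). It was in only 1 of 18 V-ATPase promoters (5.56%). None was found in the 38 autophagy promoters (0) or in the 27 of the Rag, folliculin and MiT/TFE list (0). Over all genes with this motif, 53.9% were lower and 10.7% higher under HMSNP, against 26.2% and 25.3% of genes without it. The E-box CACGTG, which is the core of CLEAR and therefore counts every CLEAR match, was in 10% of promoters, with 39.5% of its genes lower. A match is a description of letters and shows no binding. The sequences that follow are stretches of 70 bases upstream of the start, 5′ to 3′ on the strand of the gene, of lysosomal genes that fell, shown because they carry the motif in capitals.
Gla (chrX:133501911-133501980, minus strand, log2 fold change -1.98): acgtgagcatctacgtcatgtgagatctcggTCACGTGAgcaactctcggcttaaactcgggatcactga
Dnase2a (chr8:85635089-85635158, plus strand, log2 fold change -0.93): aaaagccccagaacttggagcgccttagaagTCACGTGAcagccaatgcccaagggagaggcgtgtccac
Cln3 (chr7:126182492-126182561, minus strand, log2 fold change -0.62): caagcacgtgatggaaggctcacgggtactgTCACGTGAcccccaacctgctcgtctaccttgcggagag

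Of 38 autophagy genes, 20 fell and 8 rose, with a median of -0.13. The count of increases was 5 with DESeq2 and 2 with all 15 libraries in the model. Tecpr1, a tether between autophagosomes and lysosomes that also acts on damaged lysosomal membranes, was at 191, 201 and 198 CPM under MSNP, 22.2, 20.9 and 24.5 CPM under HMSNP and 22.7, 21.6 and 16 CPM in controls (-3.12 ± 0.053 (SE), adjusted p = 9.2e-12). Optn, a receptor for ubiquitinated cargo, was at 5.16, 4.2 and 3.99 CPM against 0.965, 0.733 and 1.01 CPM. Sqstm1, the receptor p62, was at 1277, 1204 and 1136 CPM against 602, 697 and 624 CPM (-0.91 ± 0.055 (SE)). Control means of Optn and Sqstm1 were 0.527 and 688 CPM, so that all 3 of these genes were high under MSNP alone. Wipi1, which binds phosphoinositides of the growing membrane, rose (2.83, 3.31 and 3.73 CPM to 6.55, 6.62 and 6.76 CPM, 1.01 ± 0.11 (SE)). Of 20 genes for ESCRT membrane repair and galectins, 9 fell and 1 rose, with a median of -0.10. The share called was 50%, below the 55.3% of genes with a mean of at least 1 CPM. Lgals3, the galectin that marks ruptured vesicles, was at 2061, 2009 and 1995 CPM under MSNP, 712, 701 and 703 CPM under HMSNP and 738, 732 and 1069 CPM in controls (-1.52 ± 0.026 (SE), adjusted p = 9.2e-12). Lgals8, a second sensor of such rupture, fell too (-0.93), and 10 members of this list passed in neither direction.

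Targets of ATF4 had a median of -1.13, the lowest among the lists with at least 5 genes tested. Of 40 genes, 38 were tested, 37 of them fell and 22 fell at least 2-fold, against 4.03% of all genes. The share called was 97.4%, against 55.3% of genes with a mean of at least 1 CPM. In all 38 the HMSNP-treated libraries were below every MSNP-treated library, against 24.8% of all genes tested. Trib3, a pseudokinase that restrains AKT, was at 52.8, 51.7 and 44.9 CPM under MSNP and 3.04, 3.35 and 2.77 CPM under HMSNP (-4.03 ± 0.087 (SE), adjusted p = 3.9e-11). Chac1, which degrades glutathione, was at 11.7, 11.2 and 10.8 CPM against 0.731, 1.15 and 0.825 CPM (-3.63 ± 0.13 (SE)). Ddit3, the stress factor CHOP, was at 52.3, 48.2 and 50.6 CPM against 5.88, 5.52 and 6.42 CPM (-3.08 ± 0.062 (SE)). The span of Ddit3 overlaps Mars1 on the opposite strand, at -0.36. Slc1a4, a carrier of alanine, serine and cysteine, was at 22.1, 20.6 and 20.2 CPM against 2.51, 2.72 and 2.84 CPM (-2.95 ± 0.076 (SE)). Atf4 itself, named after its values were seen, fell from 398 to 160 CPM in mean (-1.32), and Gdf15, a stress cytokine of low level here, from 0.682, 0.668 and 0.553 CPM to 0, 0 and 0.0458 CPM, at least 8.1-fold. With such genes at their bound the median of the list was -1.10. Slc7a3 was the member that did not pass (-1.43, adjusted p = 0.092).

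Here the controls did not share the level of the HMSNP-treated group. Trib3 was at 17.7, 21.3 and 19.8 CPM, Chac1 at 7.2, 7.55 and 6.57 CPM and Slc1a4 at 16.7, 20.2 and 11.7 CPM in controls, between the treatments and well above HMSNP. Relative to the control mean, the median over the 38 genes was 0.31 under MSNP and -0.64 under HMSNP, and only 11 of the 37 called genes had controls nearer HMSNP. In the single libraries this median ran from 0.284 to 0.348 under MSNP and from -0.656 to -0.602 under HMSNP. Pck2, the mitochondrial enzyme that makes phosphoenolpyruvate, was at 78.2, 76.4 and 72.1 CPM under MSNP, as in controls (70.3, 76.8 and 79.1 CPM), and at 25.6, 24.9 and 25.1 CPM under HMSNP (-1.58 ± 0.043 (SE)). Nupr1, a stress-induced chromatin protein, was at 32.5, 30 and 31.2 CPM under MSNP, 13.9, 12.6 and 14.1 CPM under HMSNP and 35.1, 37.2 and 49.9 CPM in controls. For Pck2 and Nupr1 the HMSNP-treated group was the one that stood apart.

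Cytosolic tRNA synthetases, which load amino acids on tRNAs and include many ATF4 targets, followed the same direction: 15 of 20 fell and 1 rose, with a median of -0.46. Sars1 was at 675, 644 and 626 CPM against 235, 245 and 234 CPM (-1.45 ± 0.036 (SE)), with controls between at 338, 357 and 364 CPM. Aars1 was at 539, 508 and 485 CPM against 193, 199.7 and 200.4 CPM (-1.37 ± 0.04 (SE)). Qars1 rose (0.30), and Kars1 (0.00), Farsa (-0.06) and Vars1 (-0.07) were among those that did not pass. The CARE motif TGATGNAAN, the composite site of C/EBP and ATF4, was in 308 promoters (2.47%), in 7 of 38 of the ATF4 list (18.4%) and in 5 of 20 of the synthetases (25%). All holders in both lists were lower. In the ATF4 list 96.8% of members without the motif were lower too, so holders and the rest hardly differed there. Over all genes 35.7% of holders were lower against 26.4% of genes without it. The stretches that follow belong to 4 targets that fell and carry the motif in capitals, here on either strand, so that it may read as its reverse complement. Of these, Slc7a11 lost its call with all 15 libraries in the model.
Chac1 (chr2:119181498-119181567, plus strand, log2 fold change -3.63): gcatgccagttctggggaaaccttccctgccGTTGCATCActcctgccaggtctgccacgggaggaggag
Ddit3 (chr10:127126329-127126398, plus strand, log2 fold change -3.08): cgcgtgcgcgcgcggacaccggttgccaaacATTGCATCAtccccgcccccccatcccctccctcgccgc
Atf3 (chr1:190915603-190915672, minus strand, log2 fold change -1.61): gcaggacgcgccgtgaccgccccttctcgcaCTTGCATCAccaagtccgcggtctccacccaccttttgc
Slc7a11 (chr3:50398072-50398141, minus strand, log2 fold change -0.75): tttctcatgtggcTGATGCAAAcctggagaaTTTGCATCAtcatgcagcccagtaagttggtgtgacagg

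ER chaperones and other genes of the unfolded protein response changed less, with 10 of 26 lower, 2 higher and a median of -0.05. Ern1, the sensor IRE1, was at 59.8, 63.4 and 55.6 CPM against 25.5, 27.2 and 25.9 CPM (-1.18 ± 0.054 (SE)), and Herpud1 and Derl1, parts of ER-associated degradation, had log2 fold changes of -0.51 and -0.50. Cytosolic heat shock genes gave 7 lower and 4 higher of 17. The shares called in the ER and heat shock lists were 46.15% and 64.7%, against 55.3% of genes with a mean of at least 1 CPM. Hsp90aa1 was at 937, 917 and 907 CPM against 724, 731 and 703 CPM (-0.36), and Hspa1b, an inducible HSP70 whose reads can be split with its near-identical copy Hspa1a, at 7.7, 7.19 and 6.81 CPM against 9.62, 9.53 and 8.48 CPM (0.35). Both treatments left Hspa1b below its controls of 26.3, 27.7 and 26.4 CPM. With total count scaling the medians of both lists crossed to 0.00527 and 0.0035.

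Interferon-stimulated genes were higher in the HMSNP-treated group. Of 45, 37 rose and 4 fell, 17 of the increases at least 2-fold, where 20.5% of all genes rose and 3.96% rose 2-fold, and the median was 0.93. Among 12465 protein-coding genes, 3126 rose. Cxcl10, a chemokine for T cells, was at 0.422, 0.374 and 0.524 CPM under MSNP, 2.28, 2.46 and 2.25 CPM under HMSNP and 2.89, 2.73 and 3.52 CPM in controls (2.40 ± 0.19 (SE), adjusted p = 1.3e-06). Rtp4, a chaperone of receptors, was at 0.974, 0.749 and 0.931 CPM under MSNP, 3.39, 2.77 and 2.47 CPM under HMSNP and 4.37, 4.99 and 5.16 CPM in controls (1.70 ± 0.18 (SE)). Ifit3, an antiviral adaptor, was at 0.779, 0.535 and 0.524 CPM under MSNP, 1.37, 2.02 and 1.72 CPM under HMSNP and 2.86, 2.24 and 2.6 CPM in controls (1.49 ± 0.23 (SE)), and is uncertain because reads can be split with its near-identical copy Ifit3b. In all 3 genes every MSNP-treated library was below every HMSNP-treated one, and these were below every control. Levels of these examples were low. Relative to the control mean the median of the list was -0.59 under MSNP and -0.02 under HMSNP, and the median fold change was 0.83 with genes at the counting floor set to their bound.

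**Figure D5:**
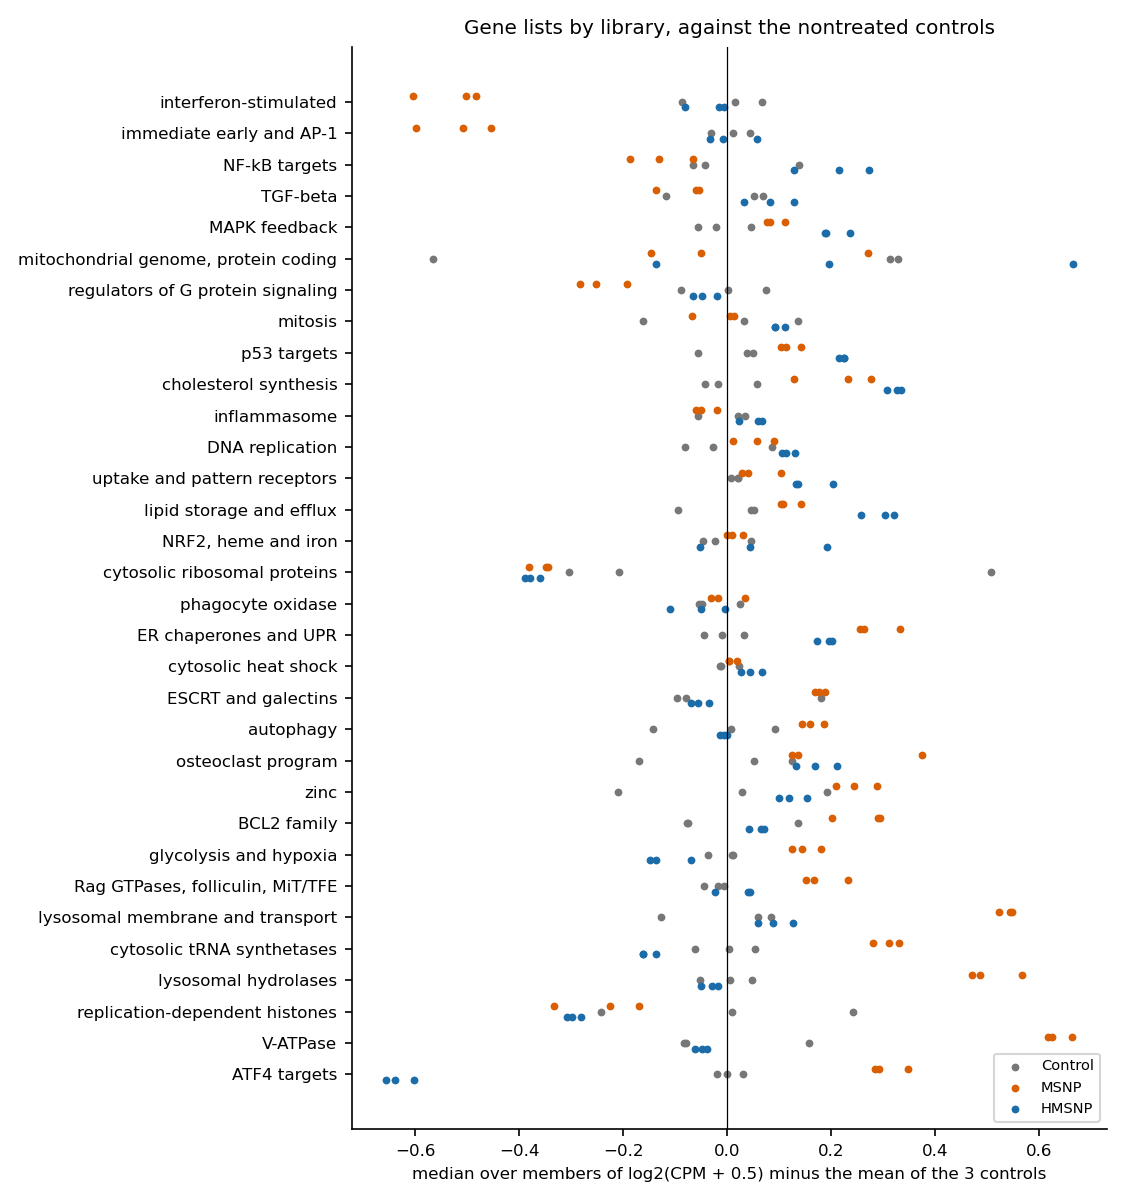
Median over the members of each list (rows) of log2(CPM + 0.5) minus the mean of the 3 controls (x axis), with 1 point per library for controls, MSNP and HMSNP. For lysosomal and interferon-stimulated lists the HMSNP-treated libraries lie near the controls and the MSNP-treated ones apart, whereas for ATF4 targets the 2 treatments lie on opposite sides of the controls.

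The list held exceptions. Usp18, the protease that removes ISG15 and restrains the interferon receptor, fell from 34.8, 35 and 34 CPM to 10.2, 10.2 and 9 CPM (-1.82 ± 0.058 (SE), adjusted p = 5.5e-10), with controls at 12.2, 12.8 and 15 CPM. Irgm1 (-0.49), Oas1a (-0.38) and Herc6 (-0.28) fell as well. Bst2 (-0.05), Oas1g (0.05), Gbp2 (1.06) and Gbp5 (1.43) did not pass. The interferon-response motif ISRE, searched as TTTC, any 2 bases and TTTC, was in 446 promoters (3.58%) and in 25 of 45 of this list (55.6%), of which 18 were higher and 3 lower. Of the list's promoters with the motif 72% belonged to genes that rose, against 95% of those without it. Over all genes, 26.9% of holders were higher and 22% lower, against 25% and 26.8% of the rest. The stretches that follow show the motif in capitals, on either strand, in 4 genes that rose and in Usp18, which fell and carries it too.
Cxcl10 (chr5:92496922-92496991, minus strand, log2 fold change 2.40): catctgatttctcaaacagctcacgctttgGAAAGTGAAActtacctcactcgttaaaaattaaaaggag
Isg15 (chr4:156285304-156285373, minus strand, log2 fold change 1.37): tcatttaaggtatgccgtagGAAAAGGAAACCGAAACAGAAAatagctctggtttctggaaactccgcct
Ifit1 (chr19:34618174-34618243, plus strand, log2 fold change 1.28): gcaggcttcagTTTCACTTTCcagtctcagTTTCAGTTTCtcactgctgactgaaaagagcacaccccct
Rtp4 (chr16:23428576-23428645, plus strand, log2 fold change 1.70): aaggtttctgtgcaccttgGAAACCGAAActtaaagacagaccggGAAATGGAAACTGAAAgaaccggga
Usp18 (chr6:121222776-121222845, plus strand, log2 fold change -1.82): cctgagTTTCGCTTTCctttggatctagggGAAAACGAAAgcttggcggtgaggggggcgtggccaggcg

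NF-kB targets moved in both directions. Of 37 tested out of 40, 22 rose and 11 fell, with a median of 0.44, also with genes at the counting floor set to their bound. Ptgs2, the inducible cyclooxygenase, was at 11, 10.2 and 10.1 CPM under MSNP and 44.6, 56.3 and 47.1 CPM under HMSNP (2.24 ± 0.087 (SE)), with controls at 46.7, 47.8 and 30.7 CPM. Nos2, the inducible nitric oxide synthase, went the other way at a low level, 2.69, 2.65 and 2.77 CPM against 0.175, 0.445 and 0.206 CPM (-3.28 ± 0.26 (SE)). Il1rn, the interleukin-1 receptor antagonist, fell from 287, 274 and 266 CPM to 47.2, 51.5 and 48 CPM (-2.50 ± 0.044 (SE), adjusted p = 1.1e-11). Chemokines were divided too: Ccl2 rose (1.85) while Ccl3 (-1.62) and Cxcl2 (-1.38) fell. Il1b, the inflammatory cytokine, was at 0.0974, 0.0802 and 0.0291 CPM against 0.322, 1.31 and 0.321 CPM, with HMSNP replicate 2 apart from the others, and these 4 members were named after their values were seen. Feedback inhibitors were not of one direction, with Nfkbia at 0.92 and Tnfaip3 at -0.66. Of 7 genes for cytokines of the Th1/Th2 panel, only Tnf had enough counts to be tested. It was at 52.1, 49.8 and 58 CPM under MSNP and 42.8, 43.9 and 49.7 CPM under HMSNP (-0.23 ± 0.067 (SE), adjusted p = 0.019), with controls at 50.3, 41.6 and 54.1 CPM, and the call was lost with total count scaling, with all 15 libraries in the model and without HMSNP replicate 1.

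Immediate early and AP-1 genes gave 15 increases and 8 decreases of 26, with a median of 0.50. Fos was joined by Egr3 (0.682, 0.909 and 1.22 CPM against 5.76, 5.37 and 5.54 CPM, 2.55 ± 0.16 (SE)) and Nr4a1 (1.17, 1.15 and 1.22 CPM against 3.42, 3.82 and 3.62 CPM, 1.62 ± 0.13 (SE)), both transcription factors induced within minutes of a stimulus. Atf3, a stress-induced partner of AP-1 that the ATF4 list also holds, fell from 178, 167 and 169 CPM to 56.9, 57.5 and 54.8 CPM (-1.61 ± 0.038 (SE)). Jun fell (-1.35) while Junb (0.88) and Fosb (1.30) rose, 3 members named after their values were seen. Relative to the control mean, the median of the list was -0.60 under MSNP and -0.01 under HMSNP. The AP-1 motif TGANTCA was in 5.39% of all promoters and in 0 of 26 of this list, which says only that these letters are not in the windows searched. Among 14 genes for MAPK feedback, 7 rose and 2 fell, 64.3% called against 55.3% of genes with a mean of at least 1 CPM. Dusp6, the phosphatase of ERK, was at 7.83, 8.1 and 7.97 CPM under MSNP, 20.4, 22.8 and 21.3 CPM under HMSNP and 20.5, 20 and 21.8 CPM in controls (1.43 ± 0.062 (SE)), and Dusp4 fell (-0.72). Of 9 regulators of G protein signaling, 4 rose, Rgs16 by far the most, and Rgs1 fell (-1.11). That is 55.6% called, near the 55.3% of genes with a mean of at least 1 CPM.

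Genes of TGF-beta signaling gave 15 increases and 4 decreases of 25, with a median of 0.36 (0.32 with genes at the counting floor set to their bound). Skil, a repressor of SMADs that the pathway induces, was at 43.6, 47.9 and 45.4 CPM under MSNP, 162, 169 and 159 CPM under HMSNP and 198, 235 and 126 CPM in controls (1.84 ± 0.043 (SE)). Ltbp2, a matrix protein, had a log2 fold change of 1.92. Pmepa1, given above, was lower than controls under both particles, with MSNP farther from them, whereas Skil under HMSNP lay within the control range. With all 15 libraries in the model, 9 genes of the list rose and 2 fell.

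Receptors for uptake and pattern recognition were divided, 16 higher and 9 lower of 34. Clec7a, the beta-glucan receptor dectin-1, was at 5.29, 5.67 and 4.69 CPM under MSNP, 19.4, 21.6 and 20.1 CPM under HMSNP and 13.1, 11.8 and 13.1 CPM in controls (1.96 ± 0.078 (SE)). Cav1, the caveolar coat protein, was at 0.552, 0.668 and 0.873 CPM against 2.25, 2.91 and 2.57 CPM (1.87 ± 0.20 (SE)), whereas Mrc1, the mannose receptor, fell from 1.98, 1.82 and 1.48 CPM to 0.526, 0.576 and 0.687 CPM (-1.54 ± 0.20 (SE)). Macrophage markers mostly rose: 9 of 14 rose, 2 fell and 3 were not called. The share called was 78.6%, against 55.3% of genes with a mean of at least 1 CPM. Values ran from -0.56 to 0.97, and the examples that follow are all increases. Csf1r, the receptor of the growth factor M-CSF, was at 1760, 1768 and 1759 CPM against 2807, 3026 and 2971 CPM (0.74 ± 0.03 (SE)), Cd14 at 555, 559 and 560.3 CPM against 1038, 1091 and 1033 CPM (0.92 ± 0.03 (SE)) and Cebpa at 71.6, 75.7 and 73.8 CPM against 143, 150.1 and 141 CPM (0.97 ± 0.038 (SE)). The span of Csf1r overlaps Hmgxb3 on the opposite strand, which moved the other way (-0.68).

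RAW 264.7 cells can become osteoclasts, and the genes of that program were divided. Of 14 tested, 6 rose and 6 fell. The fusion and transcription genes Nfatc1 and Ocstamp (3.65) rose, and Itgb3, the integrin of osteoclast adhesion (32.4, 29.4 and 26.7 CPM against 3.1, 3.61 and 3.44 CPM, -3.12 ± 0.09 (SE)), fell with Atp6v0d2 and Ctsk. Genes of lipid storage and efflux split likewise, 9 higher and 8 lower of 23. Fabp4, Fabp5 (603, 571 and 558 CPM against 146, 136 and 129 CPM, -2.07 ± 0.048 (SE)) and Nceh1, a cholesterol ester hydrolase (-1.83), fell. Lpl and Mylip, which marks the LDL receptor for degradation (3.28, 2.81 and 3.23 CPM against 17.3, 18.2 and 18.9 CPM, 2.55 ± 0.079 (SE)), rose. Cholesterol synthesis gave 10 increases and 4 decreases of 23, none 2-fold, such as Stard4, a sterol carrier (0.71), and Insig1, the anchor that retains SREBP (-0.43), and 3 genes rose with all 15 libraries in the model. Its share called, 60.9%, was near the 55.3% of genes with a mean of at least 1 CPM, and its median was 0.10.

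Glycolytic and hypoxia genes were mostly lower, 19 of 27 against 1 higher, with a median of -0.24. Ndrg1, a hypoxia- and stress-induced gene, was at 274, 262 and 259 CPM under MSNP and 59, 63 and 60.2 CPM under HMSNP (-2.12 ± 0.038 (SE), adjusted p = 1.2e-11). Hk3, a hexokinase of myeloid cells, was at 311, 310.4 and 316 CPM against 81, 74.6 and 80.1 CPM (-1.99 ± 0.037 (SE)). Vegfa, the endothelial growth factor, was at 57.7, 58.4 and 59.9 CPM under MSNP, 30.1, 29.5 and 33.1 CPM under HMSNP and 57.5, 55.9 and 45.4 CPM in controls, so that the HMSNP-treated group was the low one. Of 17 zinc genes 10 fell and 2 rose, with Slc30a1, the zinc exporter, at -0.96, Mt1 at -0.60 and the importer Slc39a14 at 1.10. NRF2, heme and iron genes gave 8 and 8 of 24, with Ftl1, the ferritin light chain, at 9723, 9503 and 9232 CPM against 5901, 6375 and 5817 CPM (-0.65 ± 0.034 (SE)) and Hmox1 not past the test (-0.14). Of 11 genes around the phagocyte oxidase 4 rose and 3 fell, 63.6% called against 55.3% of genes with a mean of at least 1 CPM. Ncf1, a cytosolic subunit, rose (0.50), and Hvcn1, the proton channel that balances the oxidase, fell from 29.1, 28.3 and 25.8 CPM to 2.75, 3.3 and 3.16 CPM (-3.17 ± 0.08 (SE)).

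Proliferation genes differed by small amounts. Mitotic genes gave 19 increases and 3 decreases of 32 with a median of 0.16, and DNA replication genes 19 and 9 of 47 with a median of 0.08, none 2-fold in either list. The shares called were 68.8% and 59.6%, the latter near the 55.3% of genes with a mean of at least 1 CPM. With all 15 libraries in the model, 6 mitotic and 7 replication genes rose. Examples of increases from the fit of the 6 libraries were Kif20a (0.39), Mcm6 (0.46) and Tk1 (0.51). The lowest values were -0.38 in the mitotic and -0.48 in the replication list. Of 23 p53 targets 12 rose and 6 fell, with Fas at 1.80 and Plk2 at -2.26. Of 16 genes of the BCL2 family 4 rose and 8 fell. Among them the promoter of death Bmf rose but stayed below the controls. Its survival-promoting relatives Bcl2l1 (177, 176 and 172 CPM against 78.6, 84.5 and 79.2 CPM, -1.11 ± 0.037 (SE)) and Mcl1 (-0.56) fell. These are examples, and the family was not divided by function. Inflammasome genes gave 6 increases and 3 decreases of 13. Nlrp3, its sensor, was at 64, 66.3 and 66.6 CPM under MSNP, 134, 144 and 144 CPM under HMSNP and 97.1, 111 and 80.3 CPM in controls (1.10 ± 0.04 (SE)).

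Few genes of ribosomal proteins and of the mitochondrial genome were called in the reported fit. Of 79 ribosomal protein genes 4 rose and 4 fell, a share of 10.1% called against 55.3% of genes with a mean of at least 1 CPM, with values from -0.23 to 0.12 and a median of -0.02. With total count scaling 14 rose and 2 fell. Without MSNP replicate 2 or HMSNP replicate 1, 0 rose, without HMSNP replicate 2, 2 rose, and without MSNP replicate 1 or HMSNP replicate 3, 2 fell. Of 13 protein-coding mitochondrial genes 2 rose and 0 fell, and the groups overlapped in all 13. DESeq2 called 0 of these genes, the fit with no filter on low counts called 8 higher, and leaving out 1 library gave 0 (without MSNP replicate 1 or 2 or HMSNP replicate 1 or 3) or 5 (without MSNP replicate 3 or HMSNP replicate 2). Of 55 replication-dependent histone genes, whose mRNAs lack a poly(A) tail and are therefore poorly captured here, 3 rose and 8 fell. Of the 8 decreases, 7 were at least 2-fold, and the median of the list was -0.61. For 14 of the 55, 1 group was at the counting floor, and the median was -0.52 with these at their bound.

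A few genes showed both particles away from the controls. Pmp22, a myelin and junction protein, was at 33.7, 33.5 and 37.9 CPM in controls, 66.9, 64 and 59.8 CPM under HMSNP and 294, 287 and 281 CPM under MSNP (-2.18 ± 0.043 (SE)). Plk2, a stress-induced kinase, was at 4.28, 4.28 and 2.95 CPM in controls, 9.56, 10.9 and 10.1 CPM under HMSNP and 50, 49.3 and 47.4 CPM under MSNP (-2.26 ± 0.054 (SE)), and Atf3, in controls at 30.5, 30.9 and 30.1 CPM, had the same order. Pald1, a phosphatase-like protein, went the other way, at 106, 108 and 103 CPM in controls, 65.8, 72.3 and 69.2 CPM under HMSNP and 21.4, 21.4 and 21.2 CPM under MSNP (1.70 ± 0.045 (SE)). These genes were graded, with HMSNP between controls and MSNP. Ranbp3l, Gucy2g and Olr1 were far from the controls under both particles. Ranbp3l was at 39.9, 41.3 and 38.9 CPM under MSNP and 31.1, 32.2 and 31 CPM under HMSNP (-0.35 ± 0.042 (SE)) against 249, 286 and 184 CPM in controls. Gucy2g, a guanylate cyclase receptor, was at 16.7, 15.2 and 16.5 CPM against 14.3, 18.3 and 17.3 CPM with controls at 52.4, 59.7 and 49.5 CPM, and the treatments overlapped (0.05 ± 0.083 (SE), adjusted p = 0.69). Chst1, a sulfotransferase, overlapped likewise (0.09 ± 0.18 (SE), adjusted p = 0.75), at 1.3, 1.74 and 1.19 CPM against 1.49, 1.44 and 1.58 CPM. Olr1, the receptor of oxidized LDL, was at 2.08, 2.46 and 2.24 CPM under MSNP, 4.94, 6.13 and 6.21 CPM under HMSNP and 28.7, 30.9 and 17.9 CPM in controls, lowest under MSNP (1.35 ± 0.13 (SE)). Prss35, a serine protease-like gene, was lowest under HMSNP, at 0.0585, 0.0262 and 0 CPM against 0.779, 0.561 and 0.64 CPM under MSNP and 1.08, 1.23 and 1.21 CPM in controls, at least 8.43-fold lower than under MSNP.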

How the data were processed

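Poly(A) RNA of RAW 264.7 cells was sequenced from directional libraries, 3 per group. The deposited file holds raw counts per gene, which the authors made with cutadapt 1.16, STAR 2.7.9a and featureCounts 1.6.3 on GRCm39, per the submitters' processing notes. The strand setting, the annotation and whether reads or pairs were counted are not given in the sources used here, so a gene and an overlapping partner may share counts. Each column was matched to a sample by its library name. Of 57186 genes, the 17460 with a summed count of at least 10 over the 6 libraries were fitted with the quasi-likelihood test of edgeR 4.0.16 (limma 3.58.1, R 4.3.3) with TMM factors, and p-values were adjusted by Benjamini-Hochberg over all of them, with a threshold of 0.05. CPM values of the controls were set on the same scale. Symbols, positions and start sites come from GENCODE vM39, which lacked 556 identifiers (0.0224% of counts).

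The groups, the 41 gene lists and the motifs were chosen with earlier results of these data known. Named genes were the 12 largest increases and decreases with a mean of at least 1 CPM and no overlap between groups, the 6 of smallest p in each direction, up to 4 members of each list under the same conditions, members that did not pass, genes the study itself tabulated, and the cytokine panel. All other members named were chosen after their values were seen. The place of the controls used log2 group means with 0.01 CPM added. A library's floor was 3 counts, which covers counting error only. Alternatives were DESeq2 1.42.0, RLE factors, total count scaling, 2 other filters, all 15 libraries in one model, replicate number as a block, removal of a trend with gene length, a test against a 1.5-fold change (glmTreat) and leaving out each library. On simulated counts for this comparison (17107 genes), 191 of 200 changed genes were recovered (95.5%), and 20 unchanged genes were called. The 200 had a mean of at least 1 CPM and were balanced in direction. Their changes were larger than the median change of called genes in the data. The simulation therefore does not give the recovery or error rate, or test the scaling, where 40.9% of genes are called. Some genes are not reported here.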

Additional observations from a re-analysis of the deposited data

How the results depend on the processing

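Of 165 named genes, 162 passed in the reported fit and 151 kept their direction and their side of the threshold in the 14 other fits made gene by gene, which do not include the test against a 1.5-fold change. With all 15 libraries in one model, which takes the spread from 5 groups, 4010 genes were called, 1829 higher and 2181 lower. Against a 1.5-fold change (glmTreat), 1433 were called, 636 higher and 797 lower. DESeq2 called 2941 higher and 3132 lower. Leaving out one library, which leaves 2 samples in an arm, gave 6183 to 6711 called genes, 2996 to 3270 higher and 3093 to 3534 lower. At least 2-fold, 1257 to 1354 were called, 582 to 688 higher and 629 to 678 lower. Gucy2g, not called, turned to -0.0316 without HMSNP replicate 2 and ran up to 0.132 without HMSNP replicate 1. Chst1, not called, turned to -0.0353 without MSNP replicate 3 and ran up to 0.273 without MSNP replicate 2. Total count scaling moved the median of all genes by 0.0539 on the log2 scale. With all 15 libraries in the model, several lists lost members: of the ER genes 0 rose and 6 fell, of the heat shock genes 1 rose and 4 fell, of the BCL2 family 2 rose and 5 fell, of the zinc genes 5 fell, of the NRF2 and MAPK feedback genes 4 rose each, of the oxidase genes 2 rose, and of the ribosomal protein genes 0 passed. Of the named genes 12 lost their call there, among them Cenpf and Slc7a11 (adjusted p = 0.0615, edgeR). Members called in V-ATPase, hydrolase, ATF4 and interferon lists in their main direction stayed within 1.5 times under the other fits and without each library. Tnf passed no more with total count scaling (adjusted p = 0.0806, edgeR), with all 15 libraries (0.279) and without HMSNP replicate 1 (0.0703).

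The replicate numbers were not taken as pairs: deviations from the group means of samples with the same number correlated at -0.0201, 0.236 and 0.54, and MSNP replicate 1 correlated best with HMSNP replicate 2. With the replicate block, 4068 genes were higher and 3926 lower, and the block changed the call of 0 named genes. Ribosomal protein genes called lower went from 4 to 10 and mitochondrial genes called higher from 2 to 9 with it.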
